A study of Mus musculus with 50 samples.

Results

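Without doxycycline, the comparison described here set mouse embryonic stem cells lacking G9a, Suv39h1, Suv39h2 and endogenous Dux against cells lacking G9a and endogenous Dux. Its members were the genes that reached 1 TPM in 2 or more of the 4 libraries compared, which were 12297 of the 24411 genes in the table, and 11440 of them reached it in all 4. The cells called TKO here had the genotype G9a;Suv39h1/2-TKO in the line titled 3S1Gi, and the cells called G9a-KO, against which they were set, came from the line titled SGi, with 2 libraries each. Both lines were of strain TT2, were labelled Dux-KO in the genotype field but not in their titles, carried the Tet-on-Dux transgene and had the doxycycline label 0. Both carry the abbreviation NT, which the labels do not explain. Each genotype is a line under 1 name, so the loss of Suv39h1/2 and any other difference between the lines cannot be told apart. Nothing in the labels says that the 2 libraries of a group came from separate cultures, so p-values measure the spread between these libraries, which may be technical. The libraries belong to a series of 50, 2 for each of 25 groups, that combines the loss of Setdb1, Suv39h1/2 and G9a, with and without Dux. Stranded mRNA libraries were sequenced, and the expression values are TPM, transcript abundance scaled to a fixed total per library, so the sequencing depth behind a value is unknown. A level here is an average over the cells of a library, so it cannot separate fewer expressing cells from less RNA per cell.

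Suv39h1 and Suv39h2 are the enzymes that trimethylate lysine 9 of histone H3 at pericentromeric and other constitutive heterochromatin. G9a, the product of Ehmt2, places mono- and dimethylation of the same lysine mainly in euchromatin, and Setdb1 trimethylates it at endogenous retroviruses and at genes bound by KRAB zinc finger proteins. HP1 proteins bind the methylated lysine, and DNA methylation is often found at the same places. Dux is a homeobox factor that switches on genes and MERVL retroviruses of the cleavage-stage embryo, a state that a small share of embryonic stem cells enters in culture.

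The targeted genes were read first. Suv39h1 had 6.66 and 5.995 TPM in TKO cells, against 15.96 and 16.2 TPM in G9a-KO cells (log2 fold change -1.22, SE 0.21, limma adjusted p = 0.00135). Both TKO libraries were below both G9a-KO libraries, yet the transcript was not gone. Suv39h2 had 9.004 and 8.08 TPM in TKO cells, against 14.99 and 15.5 TPM in G9a-KO cells, again without overlap but under the fold threshold (log2 fold change -0.77, SE 0.19, limma adjusted p = 0.0237). TPM per gene does not show which part of a transcript remains, so these levels check the labels only in direction. Ehmt2, lost in both lines, had 3.14 and 4.002 TPM in TKO cells, against 3.25 and 2.402 TPM in G9a-KO cells, compared with 109.6 and 129 TPM in Dux-null control cells. The Dux transgene was at 2.42 and 4.30 TPM in TKO cells and 3.63 and 2.90 TPM in G9a-KO cells, so it was not induced in either, and the MERVL-sfGFP reporter, an endogenous retrovirus promoter driving a fluorescent protein, was at 53.1 and 47.7 TPM in TKO cells and 34.2 and 29.6 TPM in G9a-KO cells. Transgene and reporter were not among the members and were not tested.

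All 4 libraries had the markers of embryonic stem cells. Pou5f1, Nanog, Sox2, Zfp42 and Esrrb summed to 3327 and 3040 TPM in TKO cells and to 2591 and 2548 TPM in G9a-KO cells. Of 7 fibroblast markers, 5 were below 1 TPM in all 4 libraries, and of 5 immune markers 3 were, with Cd3e the highest at 7.17 to 12.4 TPM. Across all members, log2 values correlated at r = 0.991 between the TKO libraries, at r = 0.987 between the G9a-KO libraries and at r = 0.974 to 0.982 between the groups. The mean log2 level of the Snhg genes, host transcripts of small nucleolar RNAs, was 3.71 and 3.60 in TKO cells and 3.09 and 3.09 in G9a-KO cells. It was above 4 in 6 other libraries of the table, which enter the spread and the other comparisons but not the 4 libraries compared here. The 16 members of a list of Snhg genes and other long non-coding RNAs had a median log2 fold change of 0.69 (0.40 without G9a-KO replicate 2). By limma 0 of them were called and 1 had an unadjusted p under 0.05, and the part of RNA composition in the results was not tested.

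Few genes passed the threshold for a call between TKO and G9a-KO cells. A call required a Benjamini-Hochberg adjusted p under 0.05 together with a log2 fold change of 1 or more in size, in limma fitted to log2(TPM + 1) over all 32 libraries of the table, a scale that understates the change of low genes. By that rule, with n = 2 libraries per group, 88 members were higher in TKO cells, 0.716% of members, and 92 were lower, 0.748%. In all 180 the libraries of the groups did not overlap, a condition that 3693 members (30%) met upward and 2742 (22.3%) met downward. Of the 180, 139 were at 1 TPM or more in all 4 libraries. The median member differed by 0.049 (log2), with 56.8% of members above 0 and 43.2% below. Of the members called higher, 17 were below 1 TPM in both G9a-KO libraries, and of those called lower, 11 were below 1 TPM in both TKO libraries. The counts rest on few libraries: they were 38 and 66 without TKO replicate 2, 72 and 49 without TKO replicate 1, 51 and 51 without G9a-KO replicate 2, and 122 and 103 without the 6 libraries of high Snhg level. Of the 64 called genes chosen by rule to be named, 27 stayed called whichever of the 4 libraries was left out.

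**Figure D1:**
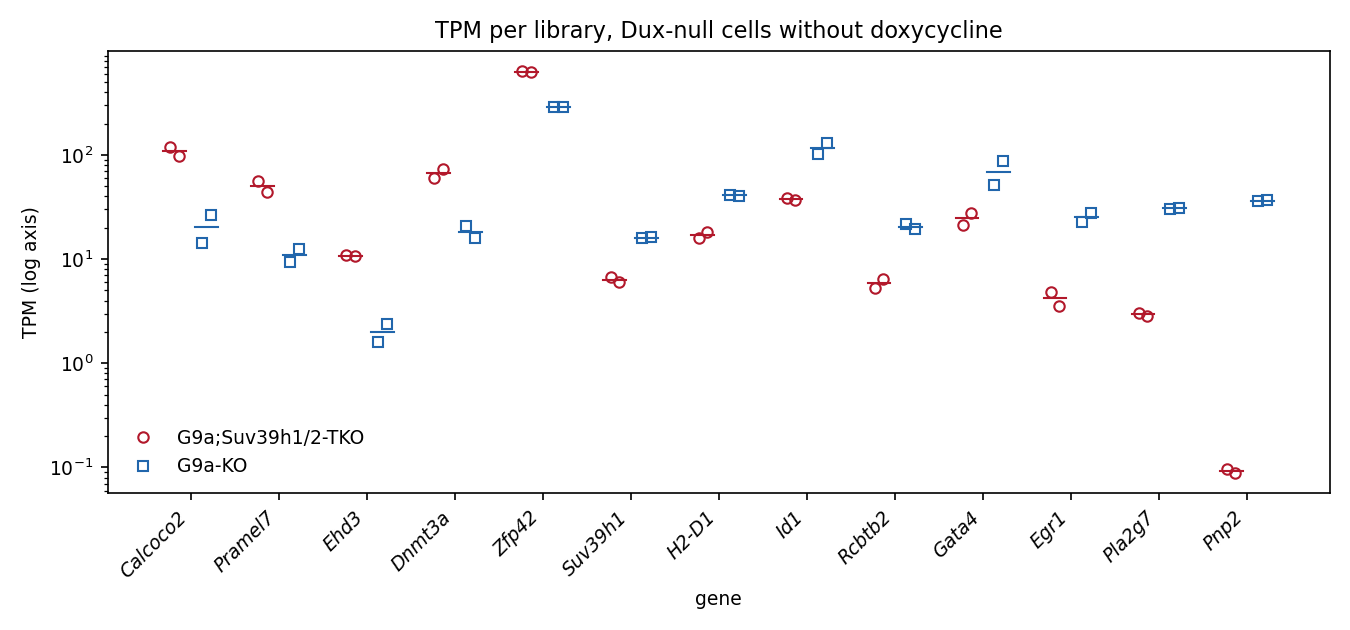
TPM on a log axis for 13 genes in each library of TKO cells (circles, left) and G9a-KO cells (squares, right), with a line at each mean of 2 libraries. Calcoco2, Pramel7, Ehd3, Dnmt3a and Zfp42 lie higher in TKO cells, the other 8 lower, and Pnp2 has 0.0965 and 0.0882 TPM in TKO cells.

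Pramel6 and Pramel7, neighbouring genes of the PRAME-like family on chromosome 2 that are active in the early embryo and in ground-state stem cells, were among the members with large increases. Their promoters, from 250 bases before to 50 bases after the annotated start, are shown because the genes moved together; capitals mark CG dinucleotides, the sites of DNA methylation, and both are from RefSeq on GRCm38.p6 (Pramel6 at chr2:87506315-87506614, plus strand, and Pramel7 at chr2:87492369-87492668, minus strand).
Pramel6: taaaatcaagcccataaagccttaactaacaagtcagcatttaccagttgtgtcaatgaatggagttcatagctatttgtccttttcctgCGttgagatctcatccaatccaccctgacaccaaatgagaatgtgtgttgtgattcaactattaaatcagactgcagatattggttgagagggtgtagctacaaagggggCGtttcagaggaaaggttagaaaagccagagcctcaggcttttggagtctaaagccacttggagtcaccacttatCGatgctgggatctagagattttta
Pramel7: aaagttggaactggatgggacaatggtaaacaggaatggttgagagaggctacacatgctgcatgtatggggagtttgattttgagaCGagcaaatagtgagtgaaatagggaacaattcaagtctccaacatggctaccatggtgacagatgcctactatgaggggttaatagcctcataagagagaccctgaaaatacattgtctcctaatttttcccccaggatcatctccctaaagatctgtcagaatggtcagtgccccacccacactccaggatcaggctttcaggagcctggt
Pramel6 has 3 CG in this window and Pramel7 has 1. CG (the letters C then G, the same on both strands) occurs at least once in 94.2% of the 27025 RefSeq promoters of this length, and 31.9% of them hold 3 or fewer. The 2 windows share no run longer than 10 bases.

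Pramel7 had 56.6 and 43.8 TPM in TKO cells, against 9.45 and 12.6 TPM in G9a-KO cells, with a clear gap between the groups (log2 fold change 2.09, SE 0.39, limma adjusted p = 0.0029). Its call stood whichever of the 4 libraries was left out. Pramel6 had 86.01 and 56.5 TPM in TKO cells, against 14.2 and 34.3 TPM in G9a-KO cells, also without overlap but with a wide spread in G9a-KO cells (log2 fold change 1.61, SE 0.44, limma adjusted p = 0.0392), and its call was lost without TKO replicate 1 (1.31), TKO replicate 2 (1.91) or G9a-KO replicate 1, when its G9a-KO level rested on the higher library. In Dux-null cells with G9a and Suv39h1/2 intact, Pramel6 was listed at 0 in both control libraries and Pramel7 was at 0.308 and 0.113 TPM.

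The wider list of 2-cell and Dux-linked genes had 39 members, of which 5 rose and 0 fell. Its median log2 fold change was 0.44, against 0.05 for all members, and 34 of 39 lay above 0, against 56.8% of all members. Besides the Pramel pair, the called members were Zscan4b, a zinc finger protein of the 2-cell embryo, and the deubiquitinases Usp17la and Usp17ld. Zscan4b had 7.67 and 8.200 TPM in TKO cells, against 1.11 and 1.59 TPM in G9a-KO cells (log2 fold change 1.93, SE 0.49, limma adjusted p = 0.0237). Usp17la had 29.5 and 31.03 TPM in TKO cells, against 16.7 and 11.3 TPM in G9a-KO cells (log2 fold change 1.08, SE 0.26, limma adjusted p = 0.0197). Both families are arrays of near-identical copies, so the share of reads given to each copy is uncertain. The 4 other measured Zscan4 genes had log2 fold changes of 1.17 to 1.49 and were not called. Rrm2, a ribonucleotide reductase subunit, had a log2 fold change of -0.01, and Kdm5b, a histone demethylase, one of 0.44, neither called. Zscan4b lost its call whichever of the 4 libraries was left out (1.78 to 2.08), and Usp17la lost it without any of them except G9a-KO replicate 1. The list had 1 called member without TKO replicate 1, 1 without TKO replicate 2, 3 without G9a-KO replicate 1, 2 without G9a-KO replicate 2, and 11 higher and 1 lower without the libraries of high Snhg level. In the same lines with doxycycline its median was -0.24, with 1 called higher and 1 lower. In cells that also lacked Setdb1 it was 0.20 (2 higher, 0 lower), and where endogenous Dux was kept -0.11 (1 higher, 4 lower).

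Of 25 pluripotency genes 2 rose and 0 fell, with a median log2 fold change of 0.35 (0.54 without G9a-KO replicate 1). Of the 25, 21 lay above 0, against 56.8% of all members. Zfp42, also called Rex1 and a standard marker of naive stem cells, had 641 and 620.2 TPM in TKO cells, against 286 and 289 TPM in G9a-KO cells (log2 fold change 1.13, SE 0.15, limma adjusted p = 0.000172). Zfp42 lies in a part of chromosome 8 whose members were mostly higher, and with that region centred its log2 fold change was 0.65. Fbxo15, an Oct4 target gene, had 1078 and 873 TPM in TKO cells, against 336 and 398 TPM in G9a-KO cells (log2 fold change 1.40, SE 0.29, limma adjusted p = 0.00663), and lost its call without TKO replicate 1 (1.25) or G9a-KO replicate 1 (1.28). Nanog had 554 and 503 TPM in TKO cells, against 279 and 278 TPM in G9a-KO cells, with a log2 fold change of 0.92, just under the fold threshold, and Pou5f1 had a log2 fold change of -0.10. With doxycycline the same lines had a list median of 0.17 and 0 calls. The median was 0.10 in cells that also lacked Setdb1 (2 higher, 0 lower) and 0.34 where endogenous Dux was kept (0 called). For Suv39h1/2 loss with G9a present it was -0.12 (0 called).

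Dnmt3a, a de novo DNA methyltransferase, was the member of the DNA methylation list that rose, 1 of 11. It had 60.5 and 73.3 TPM in TKO cells, against 20.7 and 16.01 TPM in G9a-KO cells (log2 fold change 1.81, SE 0.30, limma adjusted p = 0.00104), and the call stood whichever of the 4 libraries was left out. Its partner Dnmt3l had 252 and 329 TPM in TKO cells, against 361 and 371 TPM in G9a-KO cells and was not called (log2 fold change -0.34). Of 33 imprinted genes, expressed from 1 parental allele under the control of DNA methylation, 2 rose and 1 fell, with a median of 0.22. H19, the maternally expressed non-coding RNA next to Igf2, had 263 and 199.6 TPM in TKO cells, against 24.1 and 48.1 TPM in G9a-KO cells (log2 fold change 2.71, SE 0.62, limma adjusted p = 0.0126). Igf2, the growth factor gene paired with it, had 2.39 and 3.21 TPM in TKO cells, against 6.55 and 6.64 TPM in G9a-KO cells (log2 fold change -1.01, SE 0.20, limma adjusted p = 0.00491). So 1 member of this pair was higher and the other lower in TKO cells. H19 kept its call only without G9a-KO replicate 2, and was at 2.51 without TKO replicate 1, 2.91 without TKO replicate 2 and 2.23 without G9a-KO replicate 1. Igf2 lost its call without TKO replicate 1 (-0.85) or G9a-KO replicate 2. Peg13, a paternally expressed non-coding RNA, was the other higher gene of the list (log2 fold change 1.08, SE 0.17, limma adjusted p = 0.00078), and lost its call without G9a-KO replicate 1 (0.78).

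Several genes outside these lists rose. Calcoco2, an autophagy receptor also called NDP52, at chr11:96099326-96111964 on GRCm38, had 118 and 97.5 TPM in TKO cells, against 14.4 and 26.6 TPM in G9a-KO cells (log2 fold change 2.40, SE 0.27, limma adjusted p = 2.46e-05). Ehd3, an endosomal trafficking protein, had 10.9 and 10.6 TPM in TKO cells, against 1.59 and 2.38 TPM in G9a-KO cells (log2 fold change 1.99, SE 0.19, limma adjusted p = 4.15e-06). In Dux-null control cells the levels were 78.2 and 55.9 TPM for Calcoco2 and 12.1 and 14.8 TPM for Ehd3. Gsdmc, a gasdermin, had 1.88 and 2.41 TPM in TKO cells, against 0.163 and 0.0585 TPM in G9a-KO cells, a low level that was near 0 in G9a-KO cells (log2 fold change 1.496, SE 0.11, limma adjusted p = 9.81e-08). All 3 calls stood whichever of the 4 libraries was left out. Slc1a1, a glutamate transporter, had 4.35 and 7.02 TPM in TKO cells, against 1.25 and 1.32 TPM in G9a-KO cells (log2 fold change 1.52, SE 0.32, limma adjusted p = 0.00693), and lost its call without TKO replicate 2 (1.23) or G9a-KO replicate 2 (1.54). As3mt, the arsenite methyltransferase, had 22.4 and 24.2 TPM in TKO cells, against 10.1 and 7.91 TPM in G9a-KO cells (log2 fold change 1.29, SE 0.17, limma adjusted p = 0.000121). Kit, a receptor tyrosine kinase, and its ligand Kitl were chosen after their values were seen. Kit had 34.2 and 40.6 TPM in TKO cells and 18.01 and 16.6 TPM in G9a-KO cells, and Kitl had 4.77 and 5.26 TPM in TKO cells and 1.77 and 1.48 TPM in G9a-KO cells, with log2 fold changes of 1.06 and 1.20, both called. Ddit3, the stress factor CHOP, was the called member of 17 genes of the ATF4 stress response and serine synthesis. All 17 lay above 0, against 56.8% of all members. Their median was 0.48, which was 0.30 without G9a-KO replicate 2 and 0.75 without G9a-KO replicate 1. Ddit3 had 17.7 and 24.7 TPM in TKO cells, against 5.63 and 4.11 TPM in G9a-KO cells (log2 fold change 1.91, SE 0.51, limma adjusted p = 0.0334), and its call was lost whichever of the 4 libraries was left out (1.68 to 2.14). The list was not raised in this comparison alone. Its median was 0.90 for Suv39h1/2 loss with G9a present (3 higher) and 0.65 in the same lines with doxycycline (3 higher). It was 0.27 in cells that also lacked Setdb1 (0 called) and 0.31 where Dux was kept (1 higher). Of 16 trophoblast genes 1 rose and 1 fell. Gata3, a factor of that lineage, was the higher one, at a low level, with 1.89 and 2.29 TPM in TKO cells, against 0.468 and 0.505 TPM in G9a-KO cells (log2 fold change 1.05, SE 0.15, limma adjusted p = 0.000281), and had no call without TKO replicate 2 (0.96). 2810047C21Rik1, a predicted gene, was at 7.46 and 5.40 TPM in TKO cells and was listed at 0 in both G9a-KO libraries.

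Primitive endoderm genes, which mark the extraembryonic lineage that stem cell cultures form at low frequency, were the list with the most losses. Of its 23 members 6 fell, 0 rose and 20 lay below 0 (43.2% of all members did), with a median log2 fold change of -0.49. Gata4, a master factor of this lineage, had 21.4 and 27.8 TPM in TKO cells, against 51.1 and 86.6 TPM in G9a-KO cells (log2 fold change -1.41, SE 0.23, limma adjusted p = 0.000818). Fst, the activin antagonist follistatin, had 3.47 and 3.81 TPM in TKO cells, against 8.59 and 13.6 TPM in G9a-KO cells (log2 fold change -1.35, SE 0.23, limma adjusted p = 0.00135). Foxa2, a forkhead factor of endoderm, had 2.71 and 2.34 TPM in TKO cells, against 4.41 and 11.8 TPM in G9a-KO cells (log2 fold change -1.24, SE 0.30, limma adjusted p = 0.019). The groups did not overlap in these genes, and G9a-KO replicate 2 was the highest library in each. Sox7, Pth1r and Amn fell by 1.20, 1.18 and 1.02 on the log2 scale. Gata6 had a log2 fold change of -0.19 and Sox17 one of -0.96, neither called. Without G9a-KO replicate 2 the list had 1 called member, Gata4, and a median of -0.33, with Foxa2 at -0.62, Pth1r at -0.60 and Amn at -0.62. It had 2 called members without TKO replicate 1, with a median of -0.18, 2 without TKO replicate 2 and 8 without G9a-KO replicate 1. Sox7 lost its call whichever of the 4 libraries was left out. The 5 defining markers of this lineage summed to 125.3 and 157 TPM in TKO cells and to 167 and 271 TPM in G9a-KO cells, so G9a-KO replicate 2 also had the highest sum. Gata4 and Sox7 lie on chromosome 14, whose members were mostly lower, and with that chromosome centred they were at -0.90 and -0.69 and the list had 3 called members. In the same lines with doxycycline the list had a median of -0.76 and 6 members called lower. The median was -0.37 in cells that also lacked Setdb1 and -0.15 where endogenous Dux was kept, with 0 called in either.

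Of the genes that read out signalling, 1 was called among FGF and MAPK targets and 1 among BMP and TGF-beta targets. Id3 (-1.06) and Myc (-1.05) passed the fold limit without a call. The FGF and MAPK targets had a median of -0.16, with 5 of 15 above 0. Egr1, an immediate early gene of the ERK pathway, had 4.88 and 3.53 TPM in TKO cells, against 22.8 and 27.4 TPM in G9a-KO cells (log2 fold change -2.33, SE 0.33, limma adjusted p = 0.000245), the member called out of 15 FGF and MAPK targets. Id1, a direct BMP target, had 38.7 and 36.7 TPM in TKO cells, against 102 and 130.1 TPM in G9a-KO cells (log2 fold change -1.59, SE 0.22, limma adjusted p = 0.000245). It was the member called out of 13 BMP and TGF-beta targets, of which 12 lay below 0 (43.2% of all members did), with a median of -0.38. Bmp4, a BMP ligand and the lower gene of the trophoblast list, had 23.7 and 34.4 TPM in TKO cells, against 97.9 and 69.3 TPM in G9a-KO cells (log2 fold change -1.495, SE 0.30, limma adjusted p = 0.00538). It lies on chromosome 14 and was at -0.98 with that chromosome centred, and it lost its call without TKO replicate 1 (-1.24) or G9a-KO replicate 1 (-1.25). Ccnd2, cyclin D2, had 2.03 and 2.89 TPM in TKO cells, against 6.03 and 7.51 TPM in G9a-KO cells (log2 fold change -1.17, SE 0.18, limma adjusted p = 0.000512) and was the member called out of 16 cyclins and cell cycle kinases, though not without TKO replicate 1 (-0.99). Egr1 and Id1 stayed called whichever of the 4 libraries was left out.

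The largest decrease was in Pnp2, a purine nucleoside phosphorylase gene at chr14:50955992-50964749 on GRCm38. It had 0.0965 and 0.0882 TPM in TKO cells, against 36.3 and 36.7 TPM in G9a-KO cells (log2 fold change -5.10, SE 0.18, limma adjusted p = 2.68e-13), and every library without Suv39h1/2 among the comparisons made had 0.193 TPM or less. Its close relative Pnp overlaps it in the annotation, so reads could be split between them, and Pnp had 176 and 173 TPM in TKO cells, against 298 and 297 TPM in G9a-KO cells, without a call (log2 fold change -0.76). Pla2g7, a secreted phospholipase that breaks down platelet-activating factor, at chr17:43568098-43612201, had 3.05 and 2.84 TPM in TKO cells, against 30.5 and 31.1 TPM in G9a-KO cells (log2 fold change -3.01, SE 0.19, limma adjusted p = 1.06e-08). In both genes the libraries of a group lay close together. Dux-null control cells had 3.87 and 2.72 TPM of Pla2g7. Rcbtb2, on chromosome 14, had 5.23 and 6.46 TPM in TKO cells, against 21.6 and 19.2 TPM in G9a-KO cells (log2 fold change -1.65, SE 0.18, limma adjusted p = 2.19e-05), and with the chromosome centred it was at -1.14. Sec24c, a coat protein of vesicles leaving the endoplasmic reticulum and also on chromosome 14, had 20.5 and 32.7 TPM in TKO cells, against 99.8 and 81.8 TPM in G9a-KO cells (log2 fold change -1.76, SE 0.21, limma adjusted p = 4.07e-05). The calls of all of these genes stood whichever of the 4 libraries was left out, as did those of the 4 that follow. Msln, the surface protein mesothelin, had 2.45 and 2.46 TPM in TKO cells, against 9.502 and 11.2 TPM in G9a-KO cells (log2 fold change -1.71, SE 0.28, limma adjusted p = 0.00101), and Anxa1, annexin A1, had 6.79 and 4.44 TPM in TKO cells, against 16.96 and 21.3 TPM in G9a-KO cells (log2 fold change -1.62, SE 0.28, limma adjusted p = 0.00152). Slc6a2, the noradrenaline transporter, had 0.189 and 0.523 TPM in TKO cells, against 3.06 and 5.31 TPM in G9a-KO cells (log2 fold change -1.91, SE 0.18, limma adjusted p = 2.11e-06), and Ptk6, a non-receptor tyrosine kinase, had 1.43 and 1.55 TPM in TKO cells, against 4.49 and 8.26 TPM in G9a-KO cells (log2 fold change -1.52, SE 0.22, limma adjusted p = 0.000371).

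The Xlr5 genes of the X chromosome, an X-linked lymphocyte-regulated family of near-identical copies, fell together. The promoters of Xlr5a (chrX:73117653-73117952, minus strand), Xlr5b (chrX:73148591-73148890, plus strand) and Xlr5c (chrX:73290466-73290765, minus strand) are shown as a family that moved together, from RefSeq on GRCm38.p6 with CG in capitals.
Xlr5a: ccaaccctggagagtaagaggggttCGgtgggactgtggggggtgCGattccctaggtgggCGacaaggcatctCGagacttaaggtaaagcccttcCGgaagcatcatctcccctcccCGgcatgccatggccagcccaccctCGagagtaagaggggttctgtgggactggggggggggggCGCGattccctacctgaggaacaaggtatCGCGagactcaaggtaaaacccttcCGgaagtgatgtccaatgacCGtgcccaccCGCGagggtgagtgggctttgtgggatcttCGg
Xlr5b: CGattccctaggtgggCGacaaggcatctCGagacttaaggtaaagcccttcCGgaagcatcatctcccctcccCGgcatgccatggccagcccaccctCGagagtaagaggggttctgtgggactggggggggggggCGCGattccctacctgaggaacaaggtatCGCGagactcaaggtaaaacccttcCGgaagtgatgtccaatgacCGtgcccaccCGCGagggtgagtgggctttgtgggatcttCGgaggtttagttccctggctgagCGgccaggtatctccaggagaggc
Xlr5c: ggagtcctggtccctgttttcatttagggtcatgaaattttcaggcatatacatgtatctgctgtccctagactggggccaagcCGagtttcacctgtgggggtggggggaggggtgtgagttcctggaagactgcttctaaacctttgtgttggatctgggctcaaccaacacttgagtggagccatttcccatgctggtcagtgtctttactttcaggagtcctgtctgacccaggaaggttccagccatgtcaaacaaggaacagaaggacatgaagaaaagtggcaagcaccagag
Xlr5a and Xlr5b share an unbroken run of 255 bases, which starts at base 46 of the Xlr5a window and at base 1 of the Xlr5b window, and each holds 16 CG, a number that 33.5% of all promoters reach. The window of Xlr5c holds 1 CG and shares no run longer than 9 bases with them. Xlr5a had 2.45 and 1.598 TPM in TKO cells, against 6.95 and 8.98 TPM in G9a-KO cells (log2 fold change -1.57, SE 0.33, limma adjusted p = 0.00758). Xlr5b had 3.34 and 6.18 TPM in TKO cells, against 11.2 and 16.97 TPM in G9a-KO cells (log2 fold change -1.41, SE 0.31, limma adjusted p = 0.0113), and Xlr5c had 9.61 and 6.54 TPM in TKO cells, against 23.7 and 26.7 TPM in G9a-KO cells (log2 fold change -1.55, SE 0.38, limma adjusted p = 0.0189). In all 3 the TKO libraries were below both G9a-KO libraries, and reads of the copies may be split unevenly between them. Xlr5a lost its call without G9a-KO replicate 2 (-1.41) or TKO replicate 2 (-1.37). Xlr5b lost it without G9a-KO replicate 2 (-1.12) or TKO replicate 1 (-1.04). Xlr5c lost it without G9a-KO replicate 2 (-1.47), G9a-KO replicate 1 (-1.63) or TKO replicate 2 (-1.30). A comparison of CG content between the called genes and all members is void, since only 59 of the 88 higher and 58 of the 92 lower genes matched a promoter of the table.

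Of 14 interferon and nucleic acid sensing genes 2 fell and 0 rose. H2-D1, a class I histocompatibility gene, had 15.8 and 18.1 TPM in TKO cells, against 41.1 and 40.6 TPM in G9a-KO cells (log2 fold change -1.23, SE 0.16, limma adjusted p = 0.000114), while H2-K1, another class I gene, had 32.4 and 39.7 TPM in TKO cells, against 39.1 and 41.9 TPM in G9a-KO cells and was not called. Tmem173, which encodes the DNA sensor adaptor STING, had 0.354 and 0.192 TPM in TKO cells, against 1.64 and 2.08 TPM in G9a-KO cells (log2 fold change -1.17, SE 0.16, limma adjusted p = 0.000245). H2-Bl, a non-classical class I gene, was higher, with 5.25 and 3.55 TPM in TKO cells, against 0.1501 and 0.339 TPM in G9a-KO cells (log2 fold change 2.10, SE 0.56, limma adjusted p = 0.0326), and lost its call whichever of the 4 libraries was left out (1.88 to 2.33). Class I genes are similar in sequence, so their levels are uncertain. In the list of 30 heterochromatin genes, Suv39h1 alone was called, with a median of 0.14 that was 0.05 to 0.28 with single libraries left out, and the HP1 genes Cbx1, Cbx3 and Cbx5 had log2 fold changes of -0.09, 0.08 and 0.00. By limma, 0 members were called among 34 germline genes, 8 Magea cancer-testis genes, 21 p53 targets, 22 cholesterol synthesis genes, 23 glycolysis genes, 18 Polycomb genes, 15 primed epiblast and germ layer genes or 5 WNT targets, with medians of -0.08 to 0.23, and 27 of these 146 genes (18.5%) had an unadjusted p under 0.05, against 17.5% of all members. The 31 proteasome genes, a comparator, had a median of 0.04 and 0 calls, 3 of them with an unadjusted p under 0.05. The 6 fibroblast and 2 immune members had medians of -0.05 and -0.39 and 0 calls, with 0 at an unadjusted p under 0.05. A serpin, Serpinb1a, rose among 10, with 3.82 and 2.79 TPM in TKO cells, against 0.995 and 0.746 TPM in G9a-KO cells (log2 fold change 1.20, SE 0.28, limma adjusted p = 0.0155), and kept its call only without TKO replicate 2.

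**Figure D2:**
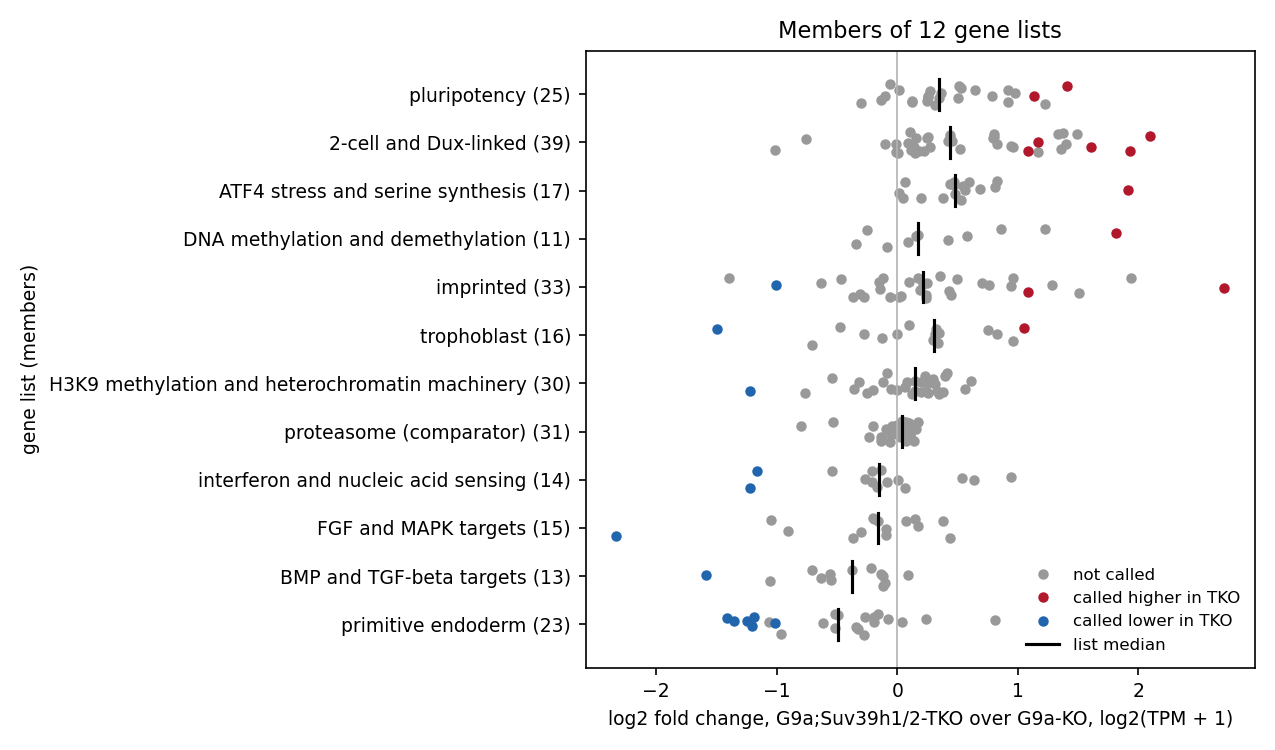
Log2 fold change of TKO over G9a-KO cells for the members of 12 gene lists, 1 point per gene, with called genes coloured and a bar at each list median. The primitive endoderm list has 6 called members on the low side, and the 2-cell list has 5 on the high side.

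Position on a chromosome went with the difference. The 429 members on chromosome 14 had a median log2 fold change of -0.46, 383 of them (89.3%) were below 0, and 31 of the 92 lower genes were there, with 0 higher by limma. At an unadjusted p under 0.05, 216 of the 429 were lower and 8 higher (50.3% and 1.86%), against 7.83% and 9.68% of all members. The 460 members on chromosome 8 up to Got2 had a median of 0.53, 427 of them (92.8%) were above 0, and they held 20 of the 88 higher genes and 3 of the 92 lower ones. The 207 members of chromosome 8 after Got2 had a median of 0.00 (0.0028) and 1 call, a lower one. On the 18 other chromosomes the medians were -0.00116 to 0.0975. The border at Got2 was set after seeing the values. Without single libraries the count of lower calls on chromosome 14 was 18 (TKO replicate 1) to 28, and that of higher calls on chromosome 8 up to Got2 was 6 (TKO replicate 2) to 23, with 10 without G9a-KO replicate 2. DNA copy number was not measured in these libraries, and its part in the shifts was not tested.

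**Figure D3:**
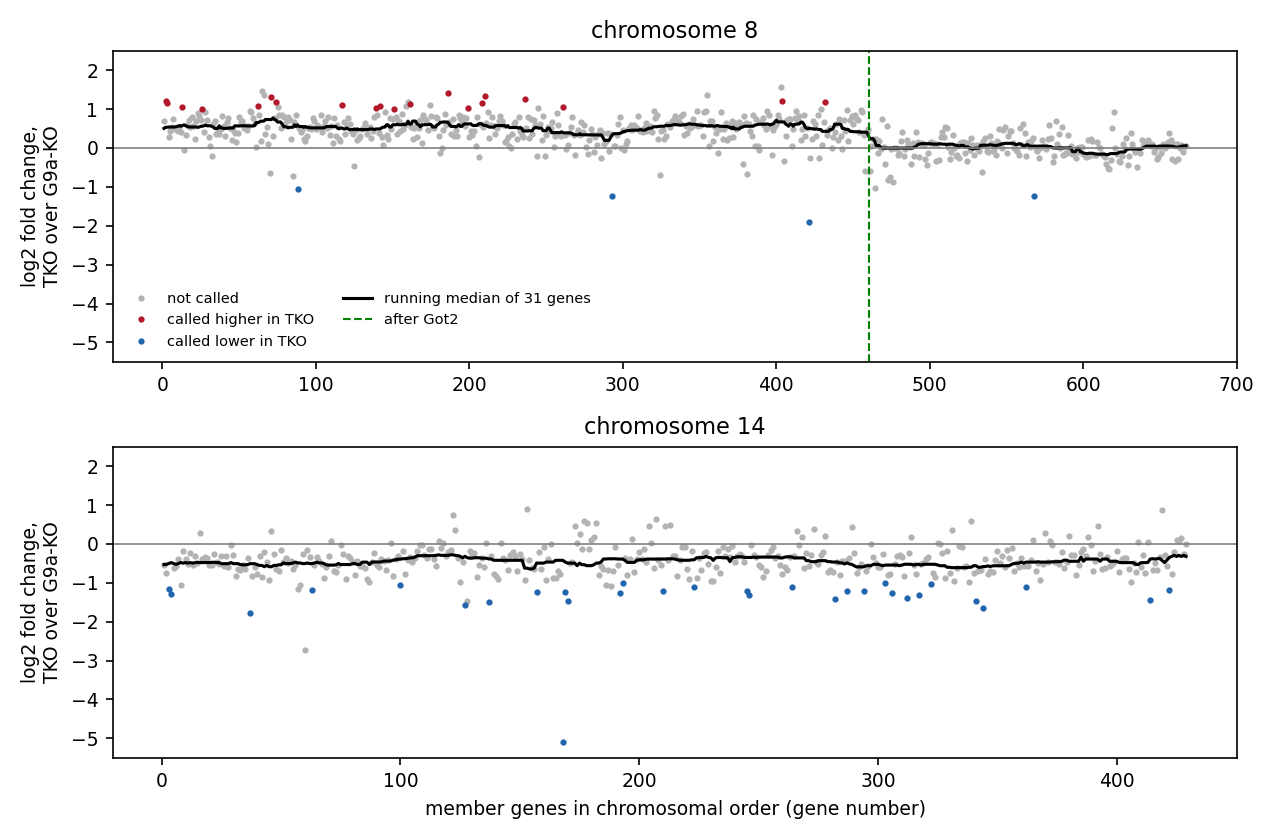
Log2 fold change of TKO over G9a-KO cells for members of chromosome 8 (top) and chromosome 14 (bottom) in chromosomal order, with a running median of 31 genes. On chromosome 8 the running median lies well above 0 up to Got2 (dashed line) and near 0 after it, and on chromosome 14 it is below 0 along its length.

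Each library of a line had the same shifts. Relative to the Dux-null control and to the other chromosomes, the chromosome 14 median was -0.564 to -0.416 in the 8 libraries of the 3S1Gi line, with and without Setdb1 and doxycycline, against -0.0191 to 0.125 in the 8 libraries of the SGi line. For chromosome 8 up to Got2 the values were 0.488 to 0.55 in the 3S1Gi line and 0.00455 to 0.0982 in the SGi line. In the Dux-null line that lacked Suv39h1/2 but kept G9a, both shifts were present (-0.513 to -0.448 and 0.472 to 0.519), and there chromosome 8 after Got2 was raised too, at 0.474 to 0.548. In the other table, without the transgene, the 6 libraries that lacked both G9a and Suv39h1/2 had the chromosome 14 shift (-0.487 to -0.379) but not the one on chromosome 8 up to Got2 (-0.0445 to 0.0266). For chromosome 8 after Got2 these 6 libraries were at -0.63 to -0.0137. The lowest were the Dux-KO libraries that also lacked Setdb1, at -0.63 and -0.616. The 4 libraries there that lacked Suv39h1/2 but not G9a had neither the chromosome 14 shift (-0.0331 to -0.00248) nor the one up to Got2 (-0.0151 to 0.0314). With these regions centred in every library, 61 members were higher and 61 lower. Of the 31 lower calls on chromosome 14, 4 were kept, those of Pnp2, Sec24c, Rcbtb2 and Sftpd, and of the 20 higher calls on chromosome 8, 0 were. Elsewhere 56 of 68 higher and 51 of 57 lower calls were kept. Haus4, a mitotic spindle gene on chromosome 14, had 30.5 and 32.6 TPM in TKO cells, against 77.8 and 75.2 TPM in G9a-KO cells (log2 fold change -1.25, SE 0.10, limma adjusted p = 4.82e-07), and was at -0.74 after centring, no longer called.

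**Figure D4:**
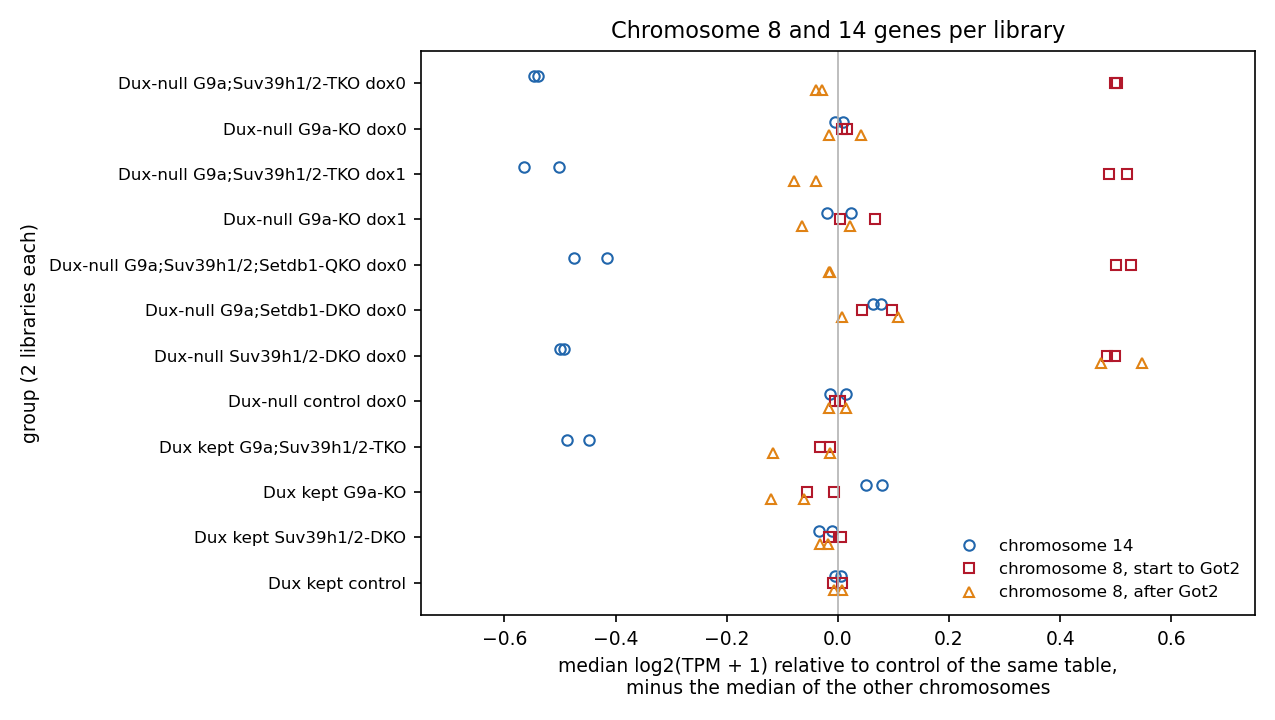
Median log2(TPM + 1) of the members of chromosome 14 (circles), chromosome 8 up to Got2 (squares) and chromosome 8 after Got2 (triangles) in each library, relative to the control cells of the same table and to the other chromosomes. The Dux-null TKO libraries without doxycycline lie at -0.540 and -0.546 for chromosome 14 and at 0.499 and 0.502 for chromosome 8 up to Got2, and the G9a-KO ones at 0.00962 and -0.00589 and at 0.0161 and 0.00731.

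The same lines were measured again with doxycycline (dose label 1, unit not given), in libraries that are not among the 4 compared, although they enter the shared estimate of the spread. There, 35 of the 88 genes called higher were again called higher, where 0.455% of members were, and 66 of the 92 called lower were again called lower, where 1.2% were. Their signs were shared in 84 of 88 and 91 of 92, 0 were called in the opposite direction, and over all members the 2 sets of log2 fold changes had r = 0.643, across genes of lines that share their chromosomal shifts. Of the lower calls, 27 of the 31 on chromosome 14 were repeated and 36 of the 57 outside chromosomes 8 and 14. Calcoco2 had 106 and 86.97 TPM in doxycycline-treated TKO cells, against 20.4 and 24.1 TPM in doxycycline-treated G9a-KO cells. Pla2g7 had 4.12 and 3.095 TPM in doxycycline-treated TKO cells, against 29.6 and 32.7 TPM in doxycycline-treated G9a-KO cells. Dnmt3a had 52.2 and 64.4 TPM in doxycycline-treated TKO cells, against 18.9 and 20.7 TPM in doxycycline-treated G9a-KO cells, so in these 3 the libraries did not overlap with the transgene induced either, and the log2 fold changes were 2.07, -2.81 and 1.504. Zscan4b, a target of Dux, was not higher there and had 196 and 257 TPM in doxycycline-treated TKO cells, against 184 and 508 TPM in doxycycline-treated G9a-KO cells, with overlapping libraries and a log2 fold change of -0.44. Of these libraries 1, G9a-KO replicate 2, had a high Snhg level, and without the 6 such libraries 42 of the 88 and 52 of the 92 were called again.

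In cells that also lacked Setdb1, the quadruple knockout (QKO) was compared with G9a;Setdb1-DKO cells, both labelled OHT, an abbreviation the labels do not explain. By their titles, QKO cells were of the same line as TKO cells, and G9a;Setdb1-DKO cells of the same line as G9a-KO cells. Any other difference between these lines therefore enters this comparison too. There 35 of the 88 higher genes were called higher, where 0.569% of members were, and 37 of the 92 lower genes were called lower, where 1.15% were, and 87 of 88 and 90 of 92 had the same sign. Chromosome 14 holds 31 of the 92 lower genes, and its members had a median log2 fold change of -0.61 in this comparison. Calcoco2 had 167 and 150.3 TPM in QKO cells, against 24.5 and 42.5 TPM in G9a;Setdb1-DKO cells. Pramel7 had 82.9 and 84.3 TPM in QKO cells, against 17.4 and 38.3 TPM in G9a;Setdb1-DKO cells. Akr1c21, an aldo-keto reductase that fell in the comparison above (log2 fold change -1.93, SE 0.37, limma adjusted p = 0.00336), had 179 and 168 TPM in QKO cells, against 161 and 228 TPM in G9a;Setdb1-DKO cells, high and overlapping in this background. Without the libraries of high Snhg level the counts were 45 of 88 and 38 of 92.

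Where endogenous Dux was kept, in the other table, 10 of the 85 higher genes tested there were called higher, where 0.548% of members were, and 21 of the 89 lower genes were called lower, where 1.17% were. Chromosome 14, which holds 31 of the lower genes of the Dux-null cells, had a median log2 fold change of -0.49 there. The shared signs numbered 70 of 85 and 73 of 89, and 2 of the 85 were called in the opposite direction, Zscan4b and the predicted gene Gm773. Zscan4b had 26.5 and 29.1 TPM in TKO cells that kept Dux, against 59.03 and 67.2 TPM in G9a-KO cells that kept Dux (log2 fold change -1.15, SE 0.21, limma adjusted p = 0.00227). Pnp2 had 0 and 0 TPM in TKO cells that kept Dux, against 16.5 and 15.96 TPM in G9a-KO cells that kept Dux. Xlr5c had 8.497 and 8.78 TPM in TKO cells that kept Dux, against 80.9 and 62.5 TPM in G9a-KO cells that kept Dux, a wider gap than in the Dux-null cells, although a difference between tables was not tested. The Magea genes, a cancer-testis family of the X chromosome, had a different outcome: 7 of 8 were called lower where Dux was kept, with a median of -2.65, and 0 of 8 in the Dux-null cells, with a median of 0.23, and this difference between tables was not tested either. Magea8 had 26.4 and 29.3 TPM in TKO cells that kept Dux, against 165 and 186 TPM in G9a-KO cells that kept Dux, and in the Dux-null cells 171 and 130.4 TPM in TKO cells, against 118 and 138 TPM in G9a-KO cells. Genes called in the same direction in the Dux-null cells without doxycycline, with doxycycline and with Dux kept numbered 5 higher and 17 lower. The higher ones were 2810047C21Rik1, Calcoco2, Pramel7, Dnajc6 and Mdfic. Among the lower ones were Pnp2, Akr1c21, Sec24c, Rcbtb2, Sftpd, Xlr5a, Xlr5b, Xlr5c, Pxk and Haus4. Of these named genes, Pnp2, Sec24c, Rcbtb2, Sftpd, Pxk and Haus4 lie on chromosome 14. That chromosome had medians of -0.46, -0.64 and -0.49 in these comparisons, and its part in the shared calls was not tested.

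With G9a present, the loss of Suv39h1/2 (Suv39h1/2-DKO against Dux-null control) gave few of the same calls. Of the 88 higher genes 3 were called higher, where 0.252% of members were, and 4 were called lower. Of the 92 lower genes 22 were called lower, where 1.46% were, with 80 of 92 below 0. Chromosome 14 holds 31 of these 92, and its members had a median log2 fold change of -0.65 in this comparison. The part of the chromosome 14 shift in the repeated calls was not tested. Pnp2 had 0 and 0 TPM in Suv39h1/2-DKO cells, against 20.7 and 20.1 TPM in control cells. Calcoco2 had 69.3 and 66.98 TPM in Suv39h1/2-DKO cells, against 78.2 and 55.9 TPM in control cells, with overlapping libraries. Without the libraries of high Snhg level, which include control replicate 1, the counts were 5 of 88 and 21 of 92.

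**Figure D5:**
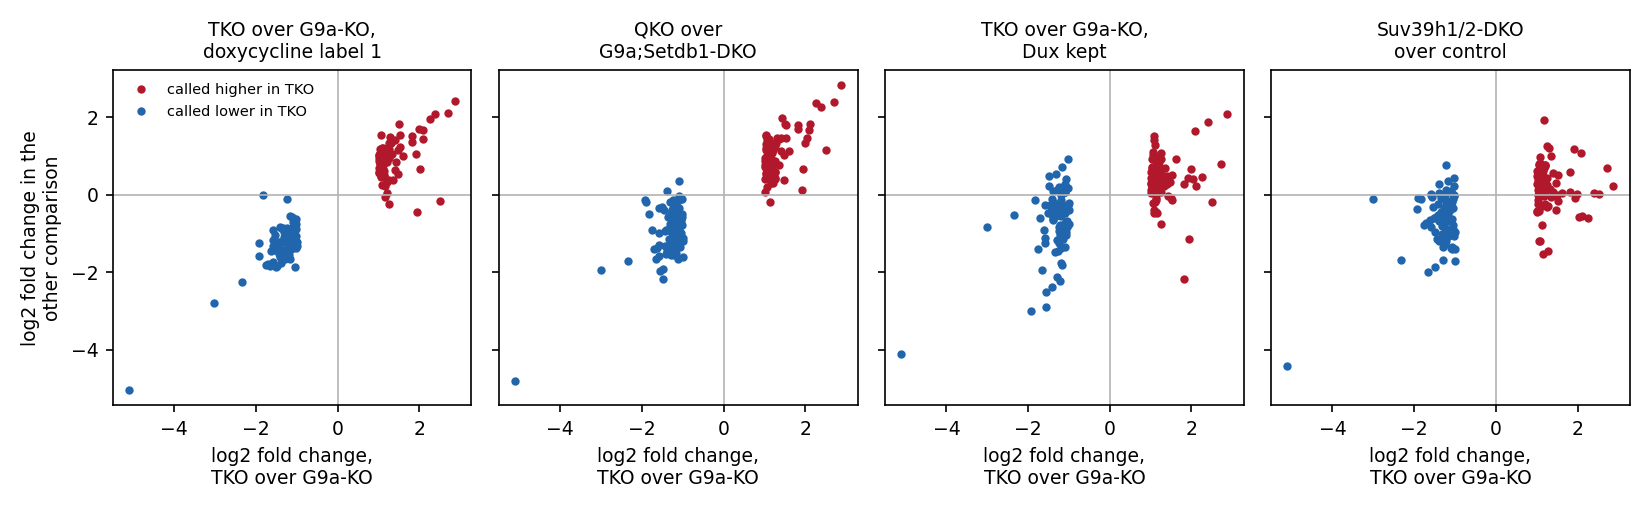
Log2 fold changes of the 180 members called in TKO over G9a-KO cells (horizontal axis) in each of 4 other comparisons that share no library with it (vertical axis), coloured by the direction of the call. The comparison with doxycycline and that of QKO cells used the same lines. With doxycycline 84 of 88 higher genes are above 0 and 91 of 92 lower genes below 0, with Suv39h1/2 lost alone 62 of 88 and 80 of 92.

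The difference between the 2 Suv39h1/2 losses, without G9a minus with G9a, was tested as an interaction in the same fit. It was called for 83 members (0.675%), 62 upward (0.504%) and 21 downward (0.171%), of which 18 were among the higher genes, 8 among the lower and 57 among the genes not called in TKO against G9a-KO cells. For Calcoco2 the difference was 2.35 (SE 0.38, limma adjusted p = 0.00304), and for Ehd3 1.97 (SE 0.27, limma adjusted p = 0.000976). Ehd3 had 10.9 and 10.6 TPM in TKO cells, against 1.59 and 2.38 TPM in G9a-KO cells, but 11.3 and 16.1 TPM in Suv39h1/2-DKO cells, against 12.1 and 14.8 TPM in control cells. Pla2g7 differed by -2.89 (SE 0.27, limma adjusted p = 1.99e-05), with 2.998 and 2.84 TPM in Suv39h1/2-DKO cells, against 3.87 and 2.72 TPM in control cells. Among 39 genes of the 2-cell list the difference was called for 5, all upward: Zscan4d, Zscan4f, Usp17la, Usp17ld and Usp17le. Usp17la had 0.343 and 0.669 TPM in Suv39h1/2-DKO cells, against 1.94 and 2.96 TPM in control cells, and was called lower there (log2 fold change -1.19, SE 0.26, limma adjusted p = 0.00893) but higher in the cells that lacked G9a. The median difference was 1.01 for this list, 0.19 for all members and 1.24 for the list of Snhg genes and other long non-coding RNAs. The Snhg level was high in control replicate 1. Over all tested genes the difference was called for 89. Without the 6 libraries of high Snhg level 111 genes were called, 64 of the 89 among them. The number called was 47 without either TKO replicate, 43 without G9a-KO replicate 2, 48 without Suv39h1/2-DKO replicate 1, 46 without control replicate 1 and 56 without control replicate 2.

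The corresponding difference between Suv39h1/2 loss with and without Setdb1, both without G9a, was called for 3 members (0.0244%). Slc6a2 was the named gene among them, at -1.73 (SE 0.25, limma adjusted p = 0.0131), with 0.0506 and 0.0705 TPM in QKO cells, against 0.362 and 0.0598 TPM in G9a;Setdb1-DKO cells, where both groups were already near 0. The others, P2rx7 at 1.94 and the predicted gene Gm7120 at -2.09, were chosen after their values were seen and were not called in TKO against G9a-KO cells. Over all tested genes the count was 4, and it was 0 without TKO replicate 1, G9a-KO replicate 2 or QKO replicate 1 and 1 without G9a;Setdb1-DKO replicate 2. Both losses were read between the same lines, so Suv39h1/2 loss and other line differences cannot be told apart here either.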

How the data were processed

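Expression values were deposited by the authors as TPM per gene, in a table of 32 libraries (16 groups, with the Dux transgene) and one of 18 (9 groups). The labels call the columns raw counts, but the values are TPM. Per the labels, RNA was extracted with AllPrep, and TruSeq stranded mRNA libraries were read as paired ends of 150 nt. The submitters' processing notes name STAR 2.7.10b, Bowtie2 2.3.4.1, RSEM 1.3.1, SAMtools 1.9 and mm10. The annotation and the step each tool served: not given in the sources used here. Depth is unknown, and TPM sums to a fixed total, so a rise of some genes lowers the share of others.

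Genes that reached 1 TPM in 2 or more libraries, 13817 in the table with the transgene and 13862 without it, were fitted with limma 3.58.1 in R 4.3.3 on log2(TPM + 1), in a single fit for each over all of its groups, with 16 residual degrees of freedom with the transgene and 9 without. Calls needed a Benjamini-Hochberg adjusted p under 0.05 and an absolute log2 fold change of 1 or more. The fit was tested on simulated data. Genes were placed by GENCODE M21 and RefSeq on GRCm38, which placed 12272 of the members. Figures were drawn with matplotlib 3.10.9 in Python 3.11.15. The members and gene lists were chosen with earlier results of these data known. Named genes were the targeted genes, the 20 largest called differences in each direction without library overlap and with a full gene name, up to 6 called and 2 uncalled members of each list, and the 10 largest in each direction called with doxycycline and with Dux kept as well, plus the 6 largest called differences of each interaction. Alternatives were another pseudocount (0.1), no filter, median ratio scaling, a replicate term, fewer libraries and, chosen after seeing the data, leaving out or centring parts of chromosomes 8 and 14, leaving out libraries with a mean log2 Snhg level above 4, and a crossed replicate term.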

Additional observations from a re-analysis of the deposited data

Results flagged for a closer look

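The difference between Suv39h1/2 loss without G9a and with G9a was tested as an interaction by limma over all 13817 tested genes. The rule had named 6 genes for a large difference called in this same interaction, so a count among named genes is no independent result. The difference passed the threshold for 14 of the 116 genes named by rule, against 0.675% of all members. Those with a positive difference were Lef1 (2.81, adjusted p = 0.0458), H2-T22 (2.72, adjusted p = 0.00838), Usp17ld (2.7, adjusted p = 0.0055), 2810047C21Rik1 (2.66, adjusted p = 9.85e-05), Calcoco2 (2.35, adjusted p = 0.00304), Usp17la (2.27, adjusted p = 0.00347), Porcn (2.25, adjusted p = 0.00183), Ehd3 (1.97, adjusted p = 0.000976), Gsdmc (1.5, adjusted p = 4.93e-05) and Stra8 (1.01, adjusted p = 0.0465). Negative differences were found for Pla2g7 (-2.89, adjusted p = 1.99e-05), Slc6a2 (-1.82, adjusted p = 0.000976), Sftpd (-1.58, adjusted p = 0.0172) and Tmem173 (-1.51, adjusted p = 0.00221). They rest on n = 2 libraries in each of 4 groups, and control replicate 1, with a mean log2 Snhg level of 4.75, is among them. For Lef1, H2-T22, Porcn, Usp17la and Usp17ld the loss of Suv39h1/2 with G9a present gave a lower call, with log2 fold changes of -3.25, -1.46, -1.20, -1.19 and -1.53. The difference between Suv39h1/2 loss without G9a and without both G9a and Setdb1 passed for Slc6a2 (-1.73, limma adjusted p = 0.0131).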

How the results depend on the processing

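None of the 64 called named genes changed sign under the alternatives run for them, while 18 of the uncalled named ones did under at least 1, such as Fn1 (0.55, and -0.12 to 1.23 with single libraries left out). The counts of 88 higher and 92 lower genes were 38 to 85 and 49 to 94 with single libraries left out, 55 and 48 with the compared groups fitted alone, 57 lower without chromosomes 8 and 14, and 61 lower with their regions centred. Median ratio scaling moved the median member to -0.00463 and the share of higher calls to 39.9%, against 48.9% as deposited. The 89 calls of the difference with and without G9a became 43 to 95 with single libraries left out, 13 with the groups alone and 44 in the 16 libraries without doxycycline. The 4 calls of the difference with and without Setdb1 became 0 with a pseudocount of 0.1, 0 to 5 with single libraries left out, 0 with the groups alone and 0 in the 16 libraries without doxycycline. Where Dux was kept, the 70 higher and 153 lower calls became 277 and 272 with a pseudocount of 0.1, and 63 to 87 and 149 to 176 with single libraries left out. Without the libraries of high Snhg level, the 233 calls of QKO against G9a;Setdb1-DKO became 413. The cause of these changes was not tested. Depth is unknown, and 2 libraries per group limit the precision.

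The replicate numbers are shared by the groups, but replicate 1 deviations of TKO and G9a-KO libraries correlated at -0.48. Libraries of equal number thus tended to deviate in opposite directions, so part of the spread was shared with the numbers crossed. The labels name no batch, and the main fit used no replicate term. With the replicate block the counts were 100 higher and 109 lower, and the 89 calls of the difference with and without G9a became 145. With the numbers crossed, the counts were 101 and 106.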
